A study of Mus musculus with 4 samples.

Results

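The genes described here are 9 regulators of the neural lineage of the olfactory epithelium, namely Neurog1, Neurod1, Neurod2, Hes6, Insm1, Sox2, Sox11, Pax6 and Kit. They were chosen by name, as a list of proneural and progenitor factors, out of 55511 features in the merged table of unique molecular identifiers (UMIs), and all 9 were found in it. Of the 9, 8 encode transcription factors, whereas Kit encodes a receptor tyrosine kinase at the cell surface. They were followed across the 10 cell types that the submitters assigned, per mouse, and their joint detection in single cells was examined in globose basal cells and immediate neuronal precursors. In the files' build GRCm38 the genes lie at chr13:56250478-56252163 (Neurog1), chr2:79452521-79456751 (Neurod1), chr11:98325415-98329648 (Neurod2), chr1:91411483-91414038 (Hes6), chr2:146221921-146225020 (Insm1), chr3:34650405-34652461 (Sox2), chr12:27334264-27342574 (Sox11), chr2:105668900-105697364 (Pax6) and chr5:75574916-75656722 (Kit), and all are annotated as protein-coding. The libraries came from the main olfactory epithelium of 4 untreated male C57BL/6 mice aged 8 weeks, 1 library per mouse, without any transgene, treatment or comparison group. Live nucleated cells were sorted after papain dissociation and profiled with a 3′ droplet assay, so a gene's count reflects its transcripts' 3′ ends.

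The olfactory epithelium replaces its sensory neurons throughout life. Horizontal basal cells form a quiescent reserve, and globose basal cells (GBC) divide and give rise to immediate neuronal precursors (INP), then to immature (iOSN) and mature (mOSN) olfactory sensory neurons, as well as to non-neuronal sustentacular (Sus) and microvillar (Mv) cells. Proneural basic helix-loop-helix factors such as Neurog1 and Neurod1 act one after another in the neuronal branch by binding E-box motifs. Sox2 and Pax6 are present in stem cells and in supporting cells, and Kit serves as a surface marker of neurogenic GBC.

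E-box motifs have the letters CANNTG, in which N is any base, so a match on either strand is a match on both. The start regions of 4 members are printed because their transcripts were found together or apart in single GBC below. Each window runs from 250 bases before to 50 bases after the start of the RefSeq gene model in build GRCm38.p6, 5′ to 3′ on the gene's own strand, with capitals marking every CANNTG match. The windows lie at chr13:56252131-56252430 on the minus strand for Neurog1, chr2:79456587-79456886 on the minus strand for Neurod1, chr3:34649745-34650044 on the plus strand for Sox2 and chr5:75574737-75575036 on the plus strand for Kit.
Neurog1: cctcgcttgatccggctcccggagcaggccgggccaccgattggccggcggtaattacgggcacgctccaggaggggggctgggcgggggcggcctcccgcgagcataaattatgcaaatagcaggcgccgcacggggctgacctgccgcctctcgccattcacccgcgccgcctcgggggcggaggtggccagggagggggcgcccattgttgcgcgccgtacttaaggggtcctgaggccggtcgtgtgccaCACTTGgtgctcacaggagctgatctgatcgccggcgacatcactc
Neurod1: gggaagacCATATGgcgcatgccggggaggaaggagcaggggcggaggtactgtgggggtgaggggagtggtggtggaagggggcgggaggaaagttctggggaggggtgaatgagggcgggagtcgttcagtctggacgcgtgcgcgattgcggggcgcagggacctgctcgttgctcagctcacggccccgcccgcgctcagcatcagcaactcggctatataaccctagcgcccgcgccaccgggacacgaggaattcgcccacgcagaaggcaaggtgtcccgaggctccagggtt
Sox2: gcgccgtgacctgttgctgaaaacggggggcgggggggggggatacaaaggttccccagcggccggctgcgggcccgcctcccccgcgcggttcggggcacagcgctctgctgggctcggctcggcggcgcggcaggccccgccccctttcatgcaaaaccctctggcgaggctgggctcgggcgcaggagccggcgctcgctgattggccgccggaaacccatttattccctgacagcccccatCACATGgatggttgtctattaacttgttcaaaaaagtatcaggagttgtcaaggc
Kit: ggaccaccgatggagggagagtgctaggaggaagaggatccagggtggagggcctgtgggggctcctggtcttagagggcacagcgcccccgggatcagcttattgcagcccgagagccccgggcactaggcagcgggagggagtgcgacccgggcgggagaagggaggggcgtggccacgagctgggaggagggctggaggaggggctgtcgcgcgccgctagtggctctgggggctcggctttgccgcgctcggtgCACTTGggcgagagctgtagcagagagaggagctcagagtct
Each of the 4 windows held 1 match. A match was present in 72.3% of all 32851 windows of this length, so its presence did not set these genes apart. The match of Neurod1 was of the form CATATG, which 3.92% of all windows held. RefSeq windows were matched for 8 of the 9 members, and for Kit 1 of a pair of overlapping windows is shown.

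The 4 libraries held 21809 barcodes and between 23157467 and 32382702 UMIs each, and 15859 barcodes carried one of the 10 type labels. Pairs of libraries shared between 4 and 14 barcode sequences, of which between 1 and 7 per pair were labelled. The median depth was between 3353 UMIs in Mv1 and 9945.5 UMIs in GBC. There were 202 GBC (86, 29, 24 and 63 in mice 1 to 4) and 284 INP (100, 38, 58 and 88), so that mice 2 and 3 contributed few GBC. The labels were checked against marker genes. Krt5, a keratin of horizontal basal cells, averaged 21.3 UMIs per 10000 in HBC1 and 7.28 in HBC2, and HBC2 also held the sustentacular enzyme Cyp2g1 at 25.7. Mki67 and Top2a, genes of dividing cells, were highest in GBC. Neurod4, listed as a marker of INP, gave no UMI in INP, whereas Nhlh1 averaged 3.47. GBC also held Ascl3 and Foxi1, factors of the ionocyte-like Mv2 cells, at 1.99 ± 1.41 and 1.84 ± 0.782 UMIs per 10000 (SD, n = 4), compared with 19.5 ± 2.20 and 7.6 ± 0.760 in Mv2.

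Levels by type are given as the UMIs of a gene over all UMIs of that type in that mouse, per 10000. They are a description without a test, because the submitters formed the types from the same counts. Types are said to differ only where the values of all 4 mice in one lay above those of all 4 mice in the other.

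Neurog1, a proneural factor that commits precursors to the neuronal fate, was found mainly in GBC and INP and, at a much lower level, in iOSN1. In GBC it stood at 0.877, 0.497, 0.318 and 0.390 UMIs per 10000 in mice 1 to 4, and in INP at 0.708, 1.31, 0.951 and 0.673. The ranges of GBC and INP overlapped, with INP higher in 3 of 4 mice. In iOSN1 its level was 0.0417 ± 0.0143 (SD, n = 4), 12.5-fold below that in GBC and with no overlap. No UMI was found in HBC1, iOSN2, Sus or Mv1, and HBC2, mOSN and Mv2 gave 3 UMIs each. Neurod1, the factor downstream of Neurog1 that drives neuronal differentiation, was likewise highest in these 2 types. Its level in GBC was 6.85, 6.88, 5.31 and 3.43 UMIs per 10000 in mice 1 to 4. In INP it was 6.97, 12.0, 9.27 and 10.3, and every INP value lay above every GBC value, although only narrowly in mouse 1. From GBC to iOSN1 the level of Neurod1 fell 163-fold, to 0.0344 ± 0.0294. Neurod2, a related factor best known from cortical neurons, gave 7 UMIs in all barcodes together, 4 of them in GBC, 2 in INP and 1 in HBC2, and no level could be ranked at this depth.

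Hes6, a Hes family member that counteracts Hes1 and thereby favours neurogenesis, and Insm1, a zinc finger repressor of neurogenic progenitors, had broader patterns. Hes6 averaged 12.5 ± 5.13 UMIs per 10000 in GBC, with 14.9, 5.84, 11.6 and 17.8 in mice 1 to 4, and 6.405 ± 0.634 in INP. GBC of mouse 2 were below every other GBC sample and below 3 of the 4 INP samples, so the types overlapped. Hes6 was also present in Mv1 at 3.08 ± 0.975 and in Mv2 at 1.77 ± 0.106, and the values of Mv1 lay above those of Mv2 in all mice. Insm1 had its highest level outside the progenitors, in iOSN1, with 1.89, 2.60, 1.90 and 1.88 UMIs per 10000, against 2.02, 1.28, 1.37 and 1.497 in GBC. These ranges overlapped, and the level in iOSN1 was higher in 3 of 4 mice. INP were lower than both, at 0.983 ± 0.0295, without overlap with GBC. Along the order GBC, INP, iOSN1, iOSN2 the level of Insm1 thus fell, rose and fell again, to 0.773 ± 0.109 in iOSN2 and 0.0557 ± 0.0069 in mOSN. Sox11, an SRY-related factor of newborn neurons, was highest in INP, with 58.0, 63.5, 54.6 and 57.5 UMIs per 10000. It was 3.23-fold lower in iOSN1 (18.1 ± 1.42) and at a similar level in GBC (17.8 ± 3.59), whose ranges overlapped. By iOSN2 it had dropped to 1.74 ± 0.105, and by mOSN to 0.121 ± 0.0168.

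Sox2, a pluripotency-related factor of neural stem cells, was highest in HBC1, with 3.49, 4.11, 3.04 and 2.92 UMIs per 10000 in mice 1 to 4, and was 2.67 ± 0.298 in HBC2. Both microvillar groups held it, Mv2 at 2.36 ± 0.271 and Mv1 at 1.35 ± 0.358. GBC stood at 1.395, 1.08, 0.732 and 1.59, overlapping with Mv1, which was higher in 2 of 4 mice. The step from GBC to INP was 14.7-fold, to 0.0813 ± 0.0435, with no overlap. In sustentacular cells Sox2 was at 0.0904, 0.144, 0.0366 and 0.0220, below GBC in every mouse. Pax6, a paired-box factor of the olfactory placode and its basal cells, differed from Sox2 in that respect. It was at 1.27, 1.04, 0.951 and 1.21 in sustentacular cells, which overlapped with GBC (1.26, 1.08, 1.53 and 0.842), and its mean was 2.20 ± 0.755 in HBC1, where mouse 4 was lowest with 1.08. By mean, Mv2 (1.74 ± 0.0965), Mv1 (1.46 ± 0.257) and HBC2 (1.32 ± 0.572) lay between HBC1 and GBC. The range of HBC1 overlapped with those of all these types, and Mv1 and HBC2 overlapped with GBC. Every mouse's value in Mv2 was above all those in GBC and sustentacular cells, and Mv2 held 53.7% of the Pax6 UMIs of the 10 types. INP held 0.0416 ± 0.0355. Sox2 and Pax6 were thus both low in INP, iOSN and mOSN, and of the pair only Pax6 overlapped between sustentacular cells and GBC.

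Kit, the receptor for stem cell factor, was at 0.924, 0.746, 1.05 and 1.51 UMIs per 10000 in GBC, 0.915, 1.06, 1.20 and 1.34 in Mv2 and 0.921, 0.814, 1.41 and 0.830 in Mv1. The 3 types could not be ordered, since all their ranges overlapped. Sustentacular cells held 0.285 ± 0.0959, and INP 0.0480 ± 0.0297. Of the mast cell genes, which were checked because mast cells also carry Kit, Cpa3 gave 1 UMI in GBC and none in Mv1 or Mv2, and Fcer1a gave none in the 3 types. Kitl, which encodes the ligand of Kit, was highest in HBC1 at 3.58 UMIs per 10000 on average, followed by Mv2 at 2.33, and was 0.393 in GBC.

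**Figure D1:**
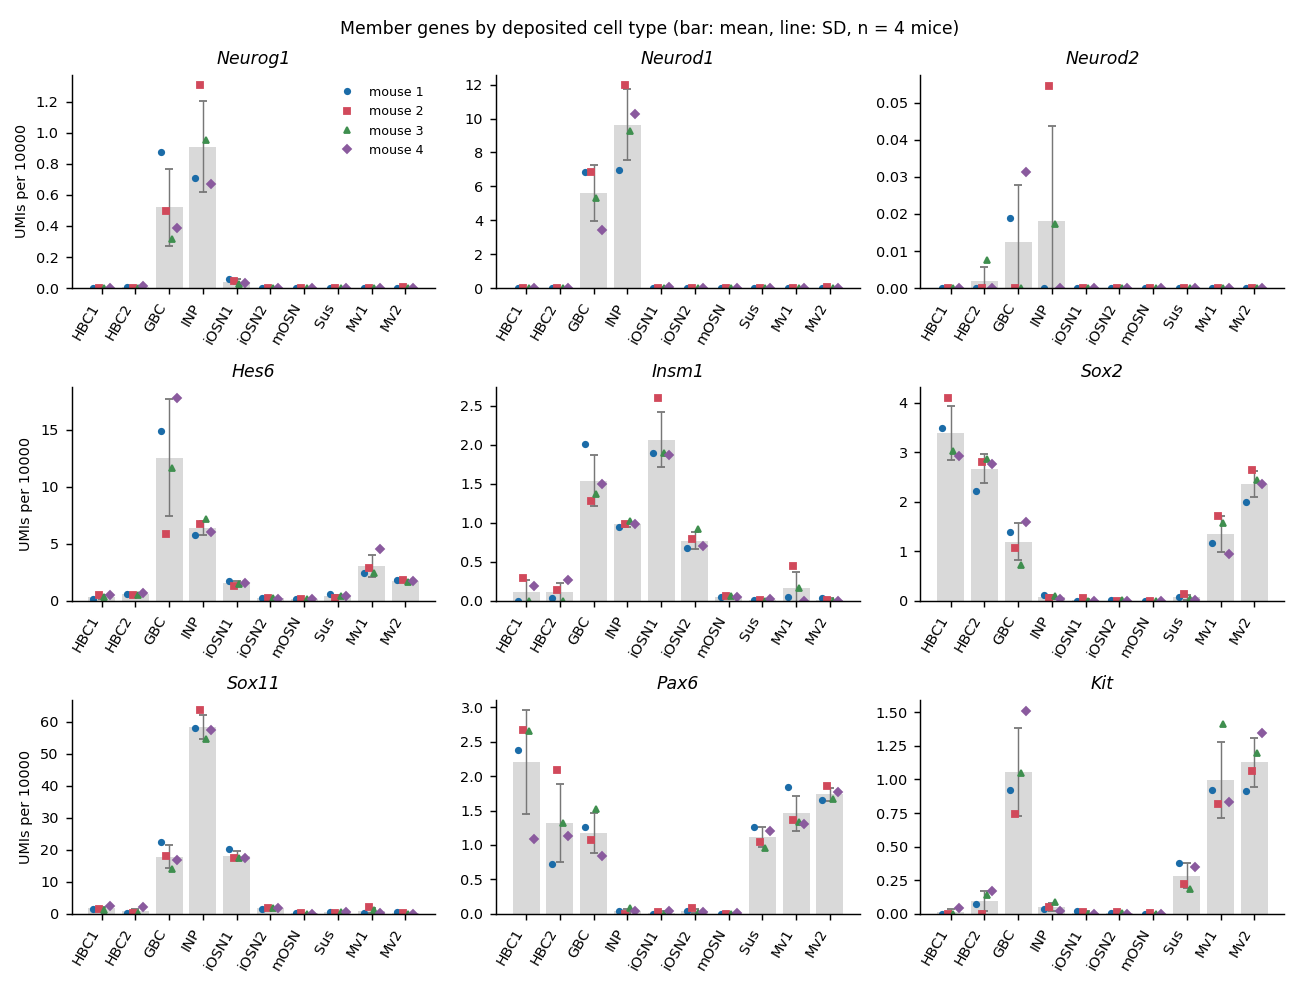
Levels of the 9 members in UMIs per 10000 (y axis, linear, a separate scale for each gene) in the 10 deposited cell types (x axis). Grey bars are means over 4 mice, lines the SD, and each symbol is 1 mouse. Neurog1 and Neurod1 are confined to GBC and INP at this scale, Sox11 peaks in INP at 58.4, and Sox2, Pax6 and Kit are near 0 in INP while present in GBC and microvillar cells.

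To name genes with a like pattern, Pearson's r over the 10 types was taken on log2(UMIs per 10000 + 0.1) for 7124 genes with at least 0.5 UMIs per 10000 in 1 type. It is a description over points that share the same libraries. The genes most like Neurog1 were Stil (r = 0.998), which serves centriole duplication, Neurod1 (0.994) and Btbd17 (0.993). Btbd17 (1.00), Ada (0.998) and the Notch-modifying glycosyltransferase Mfng (0.997) were most like Neurod1. Sox2 was closest to Dapl1 (0.989), Six3 (0.987) and Six3os1 (0.987), and Pax6 to Runx1 (0.989), Tcf7l2 (0.986) and Tab2 (0.981). Sox11 was closest to Smarcb1 (0.959), Snrpb2 (0.954) and Rtf1 (0.954), and Hes6 to Rbm24 (0.981), Ash2l (0.972) and Bzw1 (0.968). For Insm1 the 3 genes were Pgls (0.955), Rbis (0.954) and Serf1 (0.951), and for Kit they were Mrps7 (0.984), Bik (0.946) and Dapp1 (0.945). Over the 40 values per type and mouse r was lower for every gene named here, and for Kit it was 0.791, 0.896 and 0.917 in that order. Among the members, r was highest between Neurog1 and Neurod1 (0.994), followed by Insm1 with Sox11 (0.884) and Sox2 with Pax6 (0.873). Neurod2 was below the minimum.

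Detection in single cells was compared after each cell with at least 5000 UMIs had been thinned to that number, which left 156 of 202 GBC and 215 of 284 INP. Neurod1 was found in 30.5% ± 7.31 of GBC (26.3% ± 8.56 without thinning) and 71.6% ± 8.32 of INP (73.6% ± 4.48 without thinning), as the mean and SD of 4 mice. The background, taken from Mv2, was 0.365% ± 0.362. Neurog1 was found in 13.6% ± 6.38 of GBC and 25.8% ± 6.57 of INP (22.4% ± 6.58 and 40.5% ± 10.7 without thinning), against 0.149% ± 0.177 of Mv2. Neurod1 was either absent or abundant in GBC, as 105 of 156 cells had no UMI, 3 had 1 UMI and 44 had at least 5. Sox11 was found in all 215 INP, each with at least 10 UMIs, but GBC were divided, with no UMI in 34 cells and at least 10 in 54. Kit was found in 31.5% ± 14.5 of GBC (40.7% ± 10.8 without thinning) and 1.94% ± 1.57 of INP, against 0.131% ± 0.125 of mOSN. The share of INP with Kit rests on 5 cells and overlapped with that of mOSN, as no such INP was found in mouse 2. Sox2 was found in 31.2% ± 12.6 of GBC (44.5% ± 7.84 without thinning) and 3.00% ± 3.92 of INP. Pax6 was found in 36.4% ± 4.84 of GBC (52.1% ± 7.94 without thinning) and 2.70% ± 2.44 of INP. The shares of INP with Sox2 and Pax6 rest on 9 and 7 cells. They overlapped across mice with those of mOSN (0.269% ± 0.041 and 0.135% ± 0.190). No INP with Sox2 was found in mice 2 and 4 and none with Pax6 in mouse 2.

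Within GBC, Neurog1 and Neurod1 were found together more often than expected, and each was found with Kit and Sox2 less often than expected. For each pair, the cells with both genes were compared with the number expected from the share of each gene in each mouse, summed over mice, for the 28 pairs with at least 5 expected cells. Cells of 1 mouse are not replicates, so no p-value is given. All 24 GBC with Neurog1 also had Neurod1, whereas 8.35 were expected (14 of 14, 3 of 3, 1 of 1 and 6 of 6 in mice 1 to 4). The overlap was not complete at other depths, since 20 of 22 GBC with Neurog1 had Neurod1 when cells were thinned to 3000 UMIs (6.85 expected) and 43 of 51 did without thinning (15.5 expected). Conversely, 47.1% of the 51 GBC with Neurod1 had Neurog1. Insm1 went with both, being found in 41 of the 51 cells with Neurod1 (21.3 expected) and 18 of the 24 with Neurog1 (10.2 expected), with Mantel-Haenszel odds ratios over mice of 15.9 and 5.46. The ratio of Neurod1 with Insm1 was 127 without thinning and lay between 11.6 and 21.3 in the other settings. That of Neurog1 with Insm1 was 2.92 without cells that had Ascl3, Foxi1 or Cftr, 2.72 at a minimum of 2 UMIs, 11.7 without mouse 1 and 18.2 without thinning. Sox11 and Hes6 were found in every one of the 51 cells with Neurod1, against 40.6 and 44.1 expected.

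Of the 24 cells with Neurog1, 1 had Kit (7.37 expected, odds ratio 0.055), and 5 of the 51 with Neurod1 had Kit (16.1 expected, odds ratio 0.118). Without thinning these odds ratios were 0.445 and 0.393. Per mouse, the cells with Neurod1 and Kit were 1, 0, 0 and 4, with 6.26, 1.33, 1.11 and 7.41 expected, below expectation in all 4 mice. Sox2 was found in 9 of the 51 cells with Neurod1 (17.9 expected) and 3 of the 24 with Neurog1 (8.49 expected), with odds ratios of 0.264 and 0.217. Mice 2 and 3 add little to the Neurog1 pair, since 0.833 and 0.167 cells were expected there and none was found. For Neurog1 with Sox2 this depended on depth, as the odds ratio was 0.689 at 3000 UMIs and 0.923 without thinning (24 cells, 24.8 expected), and for Neurod1 with Sox2 it was 0.495 and 0.535. Kit and Sox2 themselves were found together in 28 cells against 19.98 expected, above expectation in all 4 mice, with an odds ratio of 3.03 (1.93 at 3000 UMIs and 6.17 without thinning). Hes6 was above expectation in all 4 mice with Sox2 (54 cells, 48.3 expected) and with Kit (50 cells, 45.5 expected). The pairs of Insm1 and Sox11 with Sox2 and Kit gave no steady direction. Insm1 had odds ratios of 1.00 with Sox2 and 0.84 with Kit, and Sox11 of 1.21 and 1.86, but at a minimum of 2 UMIs these were 0.515, 0.136 (1 cell, 4.75 expected), 0.921 and 0.585. Pax6 had an odds ratio of 1.28 with Neurod1, which was 0.898 at 3000 UMIs and 0.718 without mouse 1. With Kit it was 1.55, between 1.01 at a minimum of 2 UMIs and 3.34 without thinning. In all, 17 of the 28 pairs lay on one side of expectation in every mouse, which carries little where fewer than 1 cell was expected.

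Some GBC with Kit carried microvillar genes. Of the 52 GBC with Kit, 22 had Ascl3 (11.8 expected) and 24 had Foxi1 (13.5 expected), while 1 of the 51 with Neurod1 had Ascl3 (11.04 expected). The counts were therefore repeated after removal of the GBC with a UMI of Ascl3, Foxi1 or Cftr, an alternative chosen after the data were seen. In the remaining 112 cells, 5 had Neurod1 and Kit against 10.5 expected (odds ratio 0.217), 15 had Sox2 and Kit against 9.43 expected (odds ratio 4.02), and all 23 with Neurog1 had Neurod1 against 10.6 expected. At a minimum of 2 UMIs per gene, no GBC had both Neurod1 and Kit (7.08 expected).

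In INP, Neurog1 and Neurod1 were again found together, in 50 cells against 39.5 expected (odds ratio 3.93), above expectation in 3 of 4 mice, though the odds ratio was 1.65 at 3000 UMIs. Neurod1 and Hes6 were found together in 112 cells, fewer than the 120 expected, with an odds ratio of 0.276. Most of the deficit came from mouse 1 (36 cells, 41.4 expected), and the odds ratio was 0.462 without that mouse, 0.461 at 3000 UMIs and 0.594 at a minimum of 2 UMIs. Neurog1 and Insm1 were the sole pair of 9 on one side of expectation in all 4 mice, with 26 cells against 21.0 expected. At a minimum of 2 UMIs the direction of that pair turned, but with only 1 cell against 1.17 expected. Kit, Sox2 and Pax6 were too rare in INP for most pairs to be formed.

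**Figure D2:**
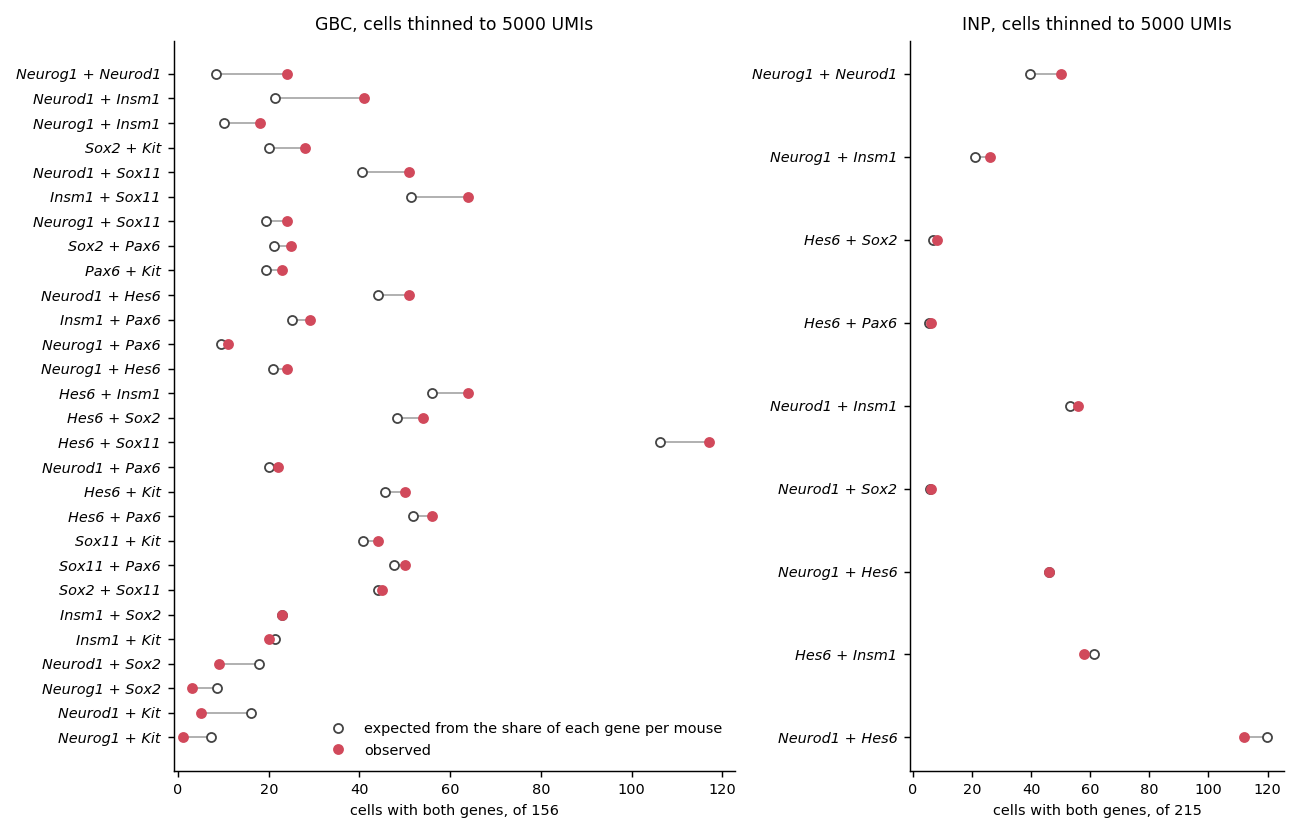
Number of cells with both genes of a pair (x axis) in 156 GBC (left) and 215 INP (right) thinned to 5000 UMIs, for pairs of members (y axis, sorted by observed over expected). Filled points are observed and open points are expected from each gene's share per mouse. Neurog1 with Neurod1 has the highest ratio of observed to expected cells in GBC, at 24 against 8.35, and the 4 pairs of Neurog1 or Neurod1 with Kit or Sox2 have the lowest.

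The differences within a type were tested on UMI sums per mouse and arm of thinned cells with edgeR's quasi-likelihood test, with the mouse as a block and Benjamini-Hochberg adjustment over all genes tested. Both arms of a mouse came from the same library. The split of GBC by Neurog1 could not be tested at 5000 UMIs, since only 2 mice had at least 5 cells in each arm. Without thinning 3 mice had enough cells, and the members' values there are a description with no p, since the co-detection of Neurog1 in the same cells was known. The log2 changes in GBC with Neurog1 were 3.29 ± 0.24 for Neurod1, 1.86 ± 0.21 for Insm1, 2.11 ± 0.17 for Sox11, 0.50 ± 0.18 for Hes6 and 0.07 ± 0.29 for Pax6. Kit was at -2.02 ± 0.33 and Sox2 at -1.0 ± 0.27, beside the unthinned odds ratio of 0.923 for Neurog1 with Sox2. The depth of the arms was not matched there, with 16143, 11473 and 9890 UMIs per cell with Neurog1 in mice 1, 2 and 4 and 10685, 7667 and 10275 without. For the main test, and after the co-detection counts were known, GBC were split by Neurod1, which left 3 mice (47 cells with Neurod1 and 91 without). It describes the same cells as the counts above and is no independent evidence of them. In each comparison a gene could pass the filter on low counts through the arm where it was high alone, and the count of such genes among those called supports nothing.

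Neurod1 itself defined the arms and was left out. Of the other members, 7 passed the filter on low counts in this comparison, 3 were called higher and 2 lower, where 31.5% of all 1913 genes tested were called, 16.5% as rises and 15% as falls. The split was chosen with the co-detection of the members known, and Neurog1, Insm1, Kit and Sox2 passed the filter through the arm where they were high alone, so the counts support nothing and the members' values are a description with no p. In GBC with Neurod1, Sox11 was at 41.2, 50 and 48.3 UMIs per 10000 in mice 1, 2 and 4, and in the other GBC at 10.1, 1.33 and 7.41. Its log2 change was 2.74 ± 0.19 (SE). Insm1 was at 3.63, 3.33 and 4.43 with Neurod1 and 0.810, 0 and 0.649 without (log2 change 2.55 ± 0.34). Neither gene's arms overlapped. Neurog1 gave 40 UMIs with Neurod1 and none without, at least 25.8-fold higher against a floor of 3 counts over the group. All cells with Neurog1 were known to have Neurod1 when the split was chosen. Kit was lower with Neurod1, at 0.074, 0 and 0.571 against 1.24, 1.67 and 2.32 (log2 change -2.94 ± 0.57). Sox2 was lower as well, at 0.667, 0.333 and 0.429 against 1.14, 2.17 and 2.54 (log2 change -1.71 ± 0.44), a call that was lost with DESeq2 and without mouse 4. Hes6 (0.39 ± 0.20) and Pax6 (0.28 ± 0.42) were not called. In these arms the summed microvillar markers Trpm5, Ascl3, Cftr and Foxi1 were between 0 and 0.667 UMIs per 10000 with Neurod1 and between 5.62 and 18.7 without, and the handling genes Fos, Jun and Hspa1a between 2.71 and 5 against 14.7 and 18.4. The fibroblast markers Col1a1 and Dcn were between 0 and 0.222 against 5.03 and 17.7, though Dcn was also found in HBC2. The gland markers Muc5b, Sox9 and Bpifb9b were at 0 with Neurod1 and between 1.35 and 5 without, the sustentacular markers between 0 and 0.074 against 0.333 and 1.68, and the ensheathing glia markers at 0 against between 0.167 and 1.14. The immature neuron markers Gap43, Gng8 and Stmn2 were higher with Neurod1, between 6.33 and 7.26 against 0.054 and 0.762. The part of these in the differences was not tested. Without the cells that had Ascl3, Foxi1 or Cftr, the log2 change of Insm1 was 1.96 ± 0.38 and that of Sox11 2.43 ± 0.30, whereas Kit and Sox2 no longer passed the filter.

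In GBC split by Neurod1, 16.5% of all 1913 genes tested rose and 15% fell. Of the other genes of the pathway there, 4 of the 5 commitment factors tested (12 were listed) were called higher, namely Ebf1, Ebf2, Lhx2 and St18. Of these, Ebf2, Lhx2 and St18 passed the filter through the arm with Neurod1 alone, and their values are a description, with Lhx2, a LIM factor needed for receptor expression, at 15.1 ± 3.22 against 0.07 ± 0.083 UMIs per 10000. Nhlh2, a helix-loop-helix factor of early neurons, gave 127 UMIs with Neurod1 and none without, at least 82.0-fold higher. Of the immature neuron genes, Tubb3, Gng8 and Stmn2 likewise passed through that arm alone, with the neuronal tubulin Tubb3 at 21.5 ± 3.24 against 0.337 ± 0.292. Of 10 cell cycle genes, 5 rose (Ccnb1, Cdk1, Cdkn1b, Mki67 and Top2a) and 2 fell (Ccnd1 and Cdkn1c). Of those that rose, Ccnb1 and Cdkn1b reached the filter's cutoff in at most 1 mouse of the other arm. The arms of Ccnd1 and of Cdkn1c overlapped, and Ccnd1 was higher with Neurod1 in mouse 2 (2.33 against 1.17 UMIs per 10000). Among antagonists of proneural factors, Id1 rose and Id3 fell, and among progenitor factors Sox4 fell while Ezh2 rose. Sox9, also listed above as a gland marker, passed the filter through the arm without Neurod1 alone, so its lower value is a description. Sparc, Sox9, Upp1 and Anxa1 had no UMI in the arm with Neurod1 and were at least 38.2-, 22.7-, 21.0- and 18.8-fold lower there, while Wfdc18 gave 1 UMI there and 3417 in the other arm. Fezf1, a zinc finger repressor, gave 96 UMIs against 1, a ratio of 186 with a 95% counting interval from 32.6 to 7417. Nhlh2, Sparc, Upp1, Anxa1, Wfdc18 and Fezf1 also passed the filter through their high arm alone, and their values are descriptions.

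GBC with a UMI of Mki67 or Top2a, which mark dividing cells, were then set against the remaining GBC in 4 mice (94 and 62 cells). Of 6 members that passed the filter, 4 rose, none fell, where 27.4% of all 1424 genes were called and 14.7% rose. Neurod1 and Insm1 passed the filter through the dividing arm alone, so the count supports nothing, and their values are a description. Neurod1 was at 9.35, 13.0, 7.82 and 7.52 UMIs per 10000 in the dividing arm of mice 1 to 4 and at 1.13, 0, 0 and 0.091 in the other, without overlap (log2 change 4.35 ± 0.54). Insm1 was at 2.83, 2.50, 2.00 and 2.83 against 0.087, 0, 0.286 and 0.182 (4.10 ± 0.48). Sox11 rose as well, from 3.86 ± 2.67 to 29.4 ± 6.70 (2.82 ± 0.33, adjusted p = 0.000243). Hes6 rose by 0.91 ± 0.28 (adjusted p = 0.0345), with arms that overlapped, and this call was lost with DESeq2 (adjusted p = 0.0751) and without mouse 1 (0.113), mouse 2 (0.0512) or mouse 4 (0.195). Kit (log2 change -0.96 ± 0.48, adjusted p = 0.181) and Pax6 (-0.45 ± 0.40, adjusted p = 0.441) were not called. The summed microvillar markers were between 0.345 and 1.82 in the dividing arm and between 5.43 and 22.4 in the other. The immature neuron markers Gap43, Gng8 and Stmn2 went the other way, between 3.24 and 4.75 against 0.091 and 2.17. The handling genes were between 4.35 and 12.5 against 16.8 and 27.4, the fibroblast markers between 0 and 0.727 against 8.46 and 32.2, and the gland markers Muc5b, Sox9 and Bpifb9b between 0 and 0.75 against 2.27 and 5.4. The part of these in the changes was not tested. Without the cells with Ascl3, Foxi1 or Cftr, 3 mice remained and 14 genes were called. Sox11 kept its call there by a narrow margin (2.06 ± 0.30, adjusted p = 0.05 after rounding), while Neurod1 (3.07 ± 0.75) and Insm1 (3.19 ± 0.76) had an adjusted p of 0.0759 each. Ezh2, Id1 and Stmn1 rose in the dividing arm with all GBC, and Id3, Btg2 and Cdkn1c fell. Ebf1, Ebf2, Lhx2, Nhlh2, Tubb3, Ccnb1, Cdk1 and Cdkn1b were higher in the dividing arm and Sox9 lower, but for each of these the low arm reached the filter's cutoff in at most 1 mouse, which leaves them as descriptions.

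In INP the split by Neurod1 compared 137 cells with Neurod1 and 63 without, in mice 1, 3 and 4. Of 4 members that passed the filter, 1 rose and 1 fell, where 11.7% of 2858 genes were called, 5.56% as rises and 6.12% as falls. Neurog1 passed the filter through the arm with Neurod1 alone, so that its rise is a description and the count supports nothing. It was at 0.873, 1.77 and 0.708 UMIs per 10000 with Neurod1 and at 0.267, 0.211 and 0.143 without, a log2 change of 2.27 ± 0.48. Hes6 was lower with Neurod1, at 4.15, 6.47 and 5.63 against 10.2, 6.74 and 6.43 (log2 change -0.60 ± 0.17, adjusted p = 0.0112). This difference came mostly from mouse 1, and without that mouse it was -0.11 (adjusted p = 0.856). With DESeq2 it was not called either (adjusted p = 0.531). Insm1 (0.25 ± 0.32, adjusted p = 0.736) and Sox11 (0.25 ± 0.09, adjusted p = 0.0823) were not called, although Sox11 was higher with Neurod1 in 3 of 3 mice. Nhlh1 and Nhlh2 rose with Neurod1, by 1.09 ± 0.21 and 0.60 ± 0.14. Of 7 commitment factors tested, Lhx2 rose and 6 fell, namely Ebf1, Ebf2, Ebf3, Emx2, Dlx5 and Myt1l (Dlx5 passed through the arm without Neurod1 alone), with Ebf1, an early B cell factor family member, at 13.4 ± 1.04 against 32.4 ± 1.20. In GBC Ebf1 and Ebf2 were higher with Neurod1, a difference between the types that was not tested. The inhibitors of proneural DNA binding moved apart, as Id1 (2.36 ± 0.26), Id2 (1.51 ± 0.26) and Id3 (1.60 ± 0.44) rose and Id4 fell by 1.61. Mfng, Gadd45a and Dnase2a rose most beside Tex14 and Coch, whereas H2-K1, Anxa11, Cpeb1, Rp2 and Dap fell most. In these 10 genes, and in Id1 and Id3, the low arm reached the filter's cutoff in at most 1 mouse. Gap43, a growth cone protein of immature neurons, fell by 0.98, and Tubb3 rose by 0.39. Markers of GBC and of INP themselves moved with this split, whereas the summed iOSN markers Gap43, Gng8 and Stmn2 overlapped. The latter were between 51.9 and 63.4 UMIs per 10000 with Neurod1 and between 52.1 and 62.8 without. The summed GBC markers, Mki67 and Top2a among them, were between 0.059 and 0.145 UMIs per 10000 with Neurod1 and between 0.211 and 0.733 without, and the INP markers Nhlh1 and Gadd45g between 6.04 and 9.18 against 3.16 and 4.93, and their part in the changes was not tested.

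In iOSN1 the members were compared between cells with and without detected olfactory receptor transcripts. Receptor-positive cells had at least 2 UMIs of 1 receptor gene (537 cells) and receptor-negative cells had none at this depth (49 cells, between 8 and 19 per mouse), and receptor genes were left out of the test. Of 3 members that passed the filter, 1 rose, where 2.34% of 5435 genes were called and 1.58% rose. Insm1 was at 2.36, 2.84, 2.29 and 2.26 UMIs per 10000 in receptor-positive cells of mice 1 to 4 and at 0.421, 0.250, 0.727 and 1.09 in receptor-negative cells. All receptor-positive values were above all receptor-negative values, and the log2 change was 1.96 ± 0.31 (3.88-fold, adjusted p = 1.31e-05). Hes6 did not differ detectably (-0.19 ± 0.32, adjusted p = 0.895). Sox11 was at 17.8, 15.1, 17.1 and 15.3 against 24.0, 14.8, 22.4 and 22.0, lower in receptor-positive cells of 3 of 4 mice (-0.36 ± 0.11, adjusted p = 0.0578), with an adjusted p between 1.7e-06 and 0.922 over the alternatives. Lhx2 (-0.93 ± 0.14), Ebf1 (-0.59 ± 0.11), Emx2 (-0.72 ± 0.21), Nhlh2 (-1.10 ± 0.27) and Id2 (-1.05 ± 0.24) fell, and Gng8 rose by 0.47 ± 0.12. Maturity moved with the split, as the summed mOSN markers Omp, Adcy3, Cnga2 and Gng13 were between 29.4 and 34.2 UMIs per 10000 in receptor-positive cells and between 12.5 and 18.0 in the others, and their part in the change of Insm1 was not tested. Among the called genes with the largest rises was Stoml3, a stomatin-like protein of olfactory cilia, at 7.23 ± 1.07 against 0.738 ± 0.602. Ddit3, a factor of the unfolded protein response, passed the filter through the receptor-positive arm alone, so its values are a description. It was at 2.31 ± 0.201 against 0.117 ± 0.086, a ratio of 18.8 with a 95% counting interval from 6.39 to 91.3, since the receptor-negative cells held 3 UMIs. The same split of INP was not tested, since only 2 mice had at least 5 receptor-positive INP.

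**Figure D3:**
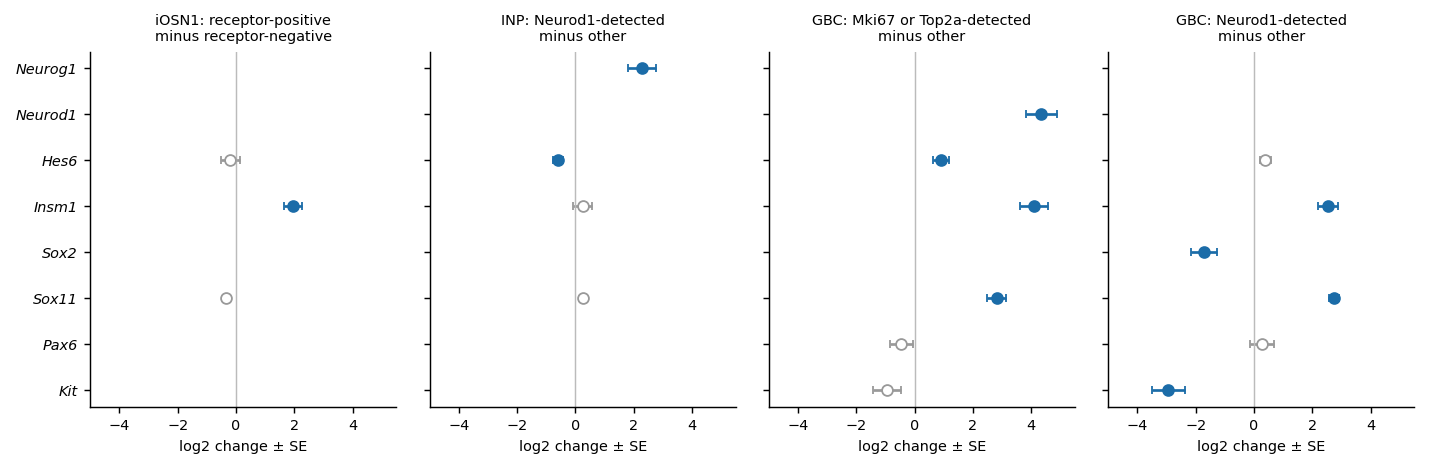
Log2 changes with SE (x axis) of the members that passed the filter (y axis) in the 4 comparisons within a type. Filled points had an adjusted p below 0.05 and open grey points did not, and Neurog1 in GBC split by Neurod1 is left out because it had no UMI in one arm. The changes of members in GBC split by Neurod1, of Neurod1 and Insm1 in dividing GBC and of Neurog1 in INP are descriptions. Insm1 rises in both GBC comparisons and in iOSN1 with a receptor (1.96), while Kit and Sox2 fall in GBC with Neurod1.

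**Figure D4:**
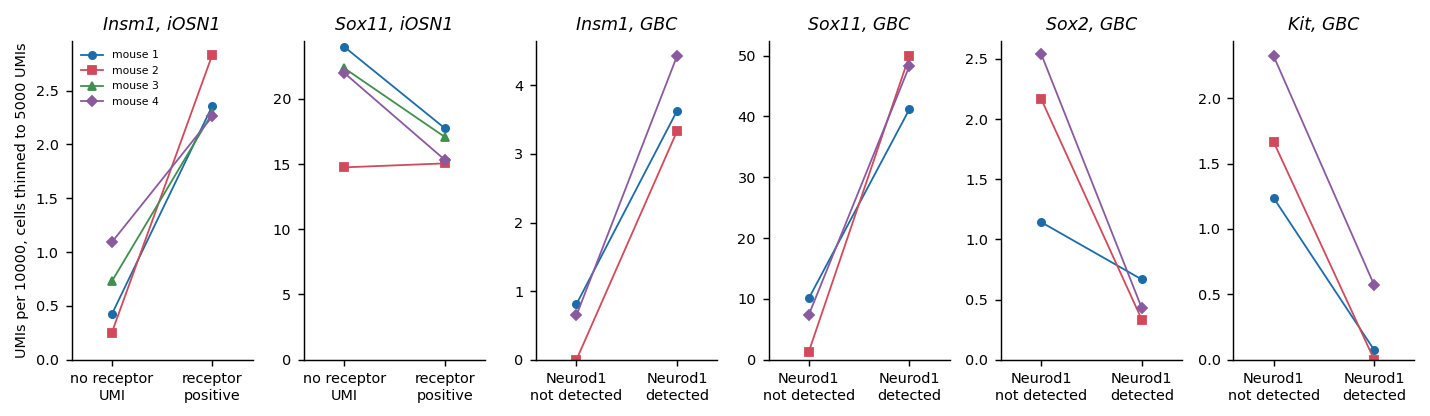
UMIs per 10000 (y axis, from 0, separate scales) of 4 members in the arms of 2 comparisons (x axis), with each symbol and line 1 mouse. The receptor split of iOSN1 has 4 mice, the Neurod1 split of GBC has mice 1, 2 and 4. Every line of Insm1 rises, Sox11 falls in 3 of 4 mice of iOSN1 and rises in GBC, and every line of Sox2 and Kit falls.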

How the data were processed

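Per the labels, libraries were made with 10x Genomics 3′ chemistry v3.1, and per the submitters' processing notes the authors used Cell Ranger 6.0.1 and GRCm38. The authors deposited UMI counts per gene and barcode, a merged table of the same counts, and a table of cells with their types, total counts and percent of mitochondrial counts. For all 9 members the merged counts equalled those of the 4 matrices in all 21809 barcodes. Cell types are the authors' labels. The members and gene lists were chosen with earlier results of these data known.

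Cells were thinned at random to 5000 UMIs for shares, co-detection and tests, and UMIs were then summed per mouse and arm. Tests used edgeR 4.0.16 (glmQLFit, TMM scaling, filterByExpr, mouse as a block) and R 4.3.3, with at least 5 cells per arm in at least 3 mice and an adjusted p below 0.05, and DESeq2 1.42.0 as an alternative. On simulated counts, 93.5% (receptor split of iOSN1) to 98.9% (Neurod1 split of INP) of genes changed 4-fold were recovered, and between 38.3% and 60.9% of those changed 2-fold. The changed genes were drawn only from those above a minimum of summed UMIs, with a common dispersion for all genes. Recovery was counted among genes that passed the filter, so the recovered shares do not apply to members with few counts. Scrublet, as in scanpy 1.11.5, called between 2 and 36 doublets per library, too few to be used, so that doublets were kept and the 4% of barcodes with the highest scores were left out in an alternative. Intervals and floors of 3 counts cover counting error only. Named genes were the 9 members, listed genes that were called, the 5 largest rises and falls per comparison and the 3 genes most like each member. p-values set the difference between the arms within mice against its variation over the 3 or 4 mice of each comparison. That variation was estimated with information shared across the genes tested.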

Additional observations from a re-analysis of the deposited data

Results flagged for a closer look

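Of 51 groups of 4 mice tested with Dixon's criterion, 6 held a mouse far from the others, where chance gives about 1 in 20. Insm1 in iOSN1 was 2.60 UMIs per 10000 in mouse 2, against 1.88 to 1.90 in the others. Sox11 in iOSN1 was 20.2 in mouse 1, against 17.3 to 17.5. Sox2 in HBC2 was 2.23 in mouse 1, against 2.77 to 2.87, and Pax6 in Mv1 was 1.84 in mouse 1, against 1.30 to 1.36. Sox11 in HBC2 was 2.10 in mouse 4, against 0.358 to 0.418, and all of its 159 UMIs there came from 9 of 122 cells. Sox11 in Mv2 was 0.597 in mouse 1, against 0.0628 to 0.118, and 10 of the 476 cells held 89.7% of its 184 UMIs. Of those 10 cells, 7 had high doublet scores, and without the 10 the level was 0.0639.

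Members also gave UMIs in barcodes without one of the 10 type labels, which no comparison used. There were 13 UMIs of Neurog1 there (3.50% of its UMIs in all barcodes), 143 of Neurod1 (4.16%), 1063 of Hes6 (10.5%) and 96 of Insm1 (3.21%). Sox2 gave 502 (10.9%), Sox11 812 (2.49%), Pax6 492 (14.2%) and Kit 341 (18.8%).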

How the results depend on the processing

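The counts of called genes depended on the processing, and where they moved the cause was not tested. For the receptor split of iOSN1 (127 genes) the count was 52 with DESeq2, 211 without a filter on low counts, 307 when cells were thinned to 3000 UMIs, 246 without thinning and between 32 and 121 when 1 mouse was left out. For INP split by Neurod1 (334) it was 83 with DESeq2, 174 at 3000 UMIs, 539 without thinning and between 165 and 300 with 1 mouse left out. For dividing GBC (390) it was 230, 240 and 745 in that order, 866 without the filter, 14 without cells that had Ascl3, Foxi1 or Cftr, and between 178 and 506 with 1 mouse left out. For GBC split by Neurod1 (602) it was 231 with DESeq2, 1063 without thinning, 334 without the cells with Ascl3, Foxi1 or Cftr, and between 299 and 784 with 1 mouse left out. Both arms of a mouse come from 1 library, so the pairing by mouse is by design, and without the block the counts were 134, 317, 398 and 527. Directions turned for Hes6 in iOSN1 without the filter (0.02) and without mouse 1 (0.384, against -0.375 without mouse 3), for Pax6 in GBC split by Neurod1 with DESeq2 (-0.023), and for Neurog1 with Insm1 in INP at a minimum of 2 UMIs (log2 odds ratio -0.25). Hes6 and Pax6 were not called in those comparisons, and the pair, with 1 cell against 1.17 expected, was not tested. Pairs of GBC near or on no steady side of expectation turned too. Without mouse 1 the odds ratio of Pax6 was 0.439 with Neurog1 and 0.847 with Insm1 (1.36 and 1.55 with all mice), and that of Insm1 with Kit was 1.66 at 3000 UMIs. The level of Sox2 in HBC1 was 2.75 UMIs per 10000 in cells with at least 2000 genes. The number of GBC pairs on one side of expectation in every mouse (17) was 11 at a minimum of 2 UMIs. That of INP (1) was 0 at 3000 UMIs, 3 without thinning, 2 at a minimum of 2 UMIs and between 1 and 3 with 1 mouse left out. In all, 149 of 154 levels, 118 of 144 shares, 212 of 240 odds ratios of pairs and 178 of 203 changes of members kept their direction and their side of the threshold or stayed within the spread between mice. Few GBC in mice 2 and 3 limited the shares and splits of GBC.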
